A study of Mus musculus with 6 samples.

Results

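Amino acid transporters of the solute carrier families Slc1, Slc3, Slc7, Slc36, Slc38 and Slc43 are described here across 3 stages of mouse Oct4-Venus-positive cells. Members were all genes whose symbol in the platform's annotation belongs to one of these 6 families and that had a probe set annotated to that gene alone. This gave 40 genes of the 18193 genes on the arrays: 7 of Slc1, 2 of Slc3, 15 of Slc7, 4 of Slc36, 9 of Slc38 and 3 of Slc43. They were covered by 86 probe sets, and the probe set with the highest mean over 6 arrays stood for its gene.

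The cells were OLV2-1, embryonic stem cells of the mouse in which the fluorescent protein Venus was knocked into the Oct4 (Pou5f1) locus, so every group carries the reporter allele. ESC were undifferentiated and labelled as the Oct4-Venus+ fraction; the sorting protocol adds CD31 (Pecam1) positivity. EpiSC-like cells, named for epiblast stem cells, came from aggregates after 3 days of SFEBq, a serum-free floating culture for neural induction, and were Oct4-Venus+ and Pecam1-. Day 7 cells were the Oct4-Venus+ fraction after 7 days of SFEBq, with no Pecam1 gate named. Trypsin with EDTA, followed by 1 hour of recovery in medium, was used to dissociate ESC and the day 3 aggregates. The day 7 aggregates were dissociated with EDTA without trypsin, and no recovery is named for them. In comparisons with day 7, these steps and the Pecam1 gate cannot be told apart from the stage. Each group had 2 arrays of 1 cell line, and separate cultures are not stated in the labels. The p-values therefore reflect only how far these samples spread, which may be technical. As background, mammalian cells take up amino acids through carriers of different specificity: exchangers made of a heavy and a light chain, uniporters for cationic amino acids, sodium-driven carriers for glutamate or neutral amino acids, and proton-driven carriers, some of them in the lysosome. Mouse embryonic stem cells are known for a high demand for threonine, glutamine and other amino acids.

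Replicates of a group correlated across all genes with r = 0.976 to 0.978, and arrays of different groups with r = 0.948 to 0.976. The brightest probe set read 30793 to 36841 in replicate 1 and 63296 to 66643 in replicate 2 of the groups, and the mean of the hybridization controls 6549 to 8287 and 13262 to 16096. Averages of the spiked poly-A transcripts were 66.2 and 68.9 in replicate 2 of ESC and of EpiSC-like cells and 527 to 736 in the other 4 samples. Differences are therefore also given within each replicate number. For actin, the 3' probe set exceeded the 5' one by 0.71 and 0.94 at day 7, against 0.46 to 0.58 in the other 4 samples (log2 of signal + 16). The same value for Gapdh did not set day 7 apart, at -0.12 and -0.18 within a range of -0.36 to 0.0054 in the others. Of 12 genes read as a check of the labels, 3 were called higher and 3 lower in EpiSC-like cells against ESC. Pou3f1, Fgf5 and Sox1, genes of the primed epiblast and early neural ectoderm, were the higher ones (4.98, 4.76 and 4.22), and Klf4, Tfcp2l1 and Esrrb, genes of naive stem cells, the lower ones (-3.34, -2.98 and -2.08). At day 7 against ESC 2 of the 12 were called higher, Fgf5 and Sox1 (both 2.90), and 0 lower, with a median of -0.08, and against EpiSC-like cells 0 of 12 were called, 7 above and 5 below 0.

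Of the 40 transporter genes 1 passed the test in 1 of the 3 comparisons. Slc1a1, a sodium-driven carrier of glutamate, aspartate and cysteine, fell from ESC to EpiSC-like cells. In bulk samples such as these, fewer cells of a type and less RNA per cell cannot be told apart. In that comparison 0 members rose and 1 fell, against 1.31% of all genes called higher and 0.583% called lower (1.90% in either direction). Between day 7 and ESC 0 of 40 members passed in limma, with 1.04% of all genes called (0.753% higher and 0.286% lower), and 12 members had an unadjusted p under 0.05 (30.0%, against 18.3% of all genes). Between day 7 and EpiSC-like cells 0 of 40 passed, with 0.0385% of all genes called (0.0220% higher and 0.0165% lower), and 6 had an unadjusted p under 0.05 (15.0%, against 14.1% of all genes). For EpiSC-like cells against ESC the same count was 9 (22.5%, against 2904 of the 18193 genes).

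The families did not move in one direction. Of the 40 differences 20 were above 0 and 20 below in EpiSC-like cells against ESC, with a median of 0.06 beside 0.03 over all genes. The same split of 20 and 20 was found at day 7 against ESC, with medians of 0.0009 for the members and 0.02 for all genes. With each array centred on its median, which moved the median of all genes by -0.15 and -0.21, the splits were 19 above and 21 below, and 17 and 23, and the medians of the members -0.09 and -0.21. On the deposited scale, for day 7 against EpiSC-like cells 19 were above and 21 below 0, with medians of -0.09 and -0.02. Arrays of EpiSC-like cells lay wholly above those of ESC for 13 members (32.5%, against 25% of all genes) and wholly below for 9 (22.5%, against 19.9%). At day 7 against ESC the counts were 11 (27.5%, against 26.6%) and 13 (32.5%, against 23.5%), and at day 7 against EpiSC-like cells 6 (15.0%, against 21.3%) and 12 (30.0%, against 24.5%). The single differences were wider than these medians: they ran from -2.66 to 1.76 in the first comparison, -1.38 to 1.86 in the second and -1.42 to 1.60 in the third, with a median standard error of 0.30.

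**Figure D1:**
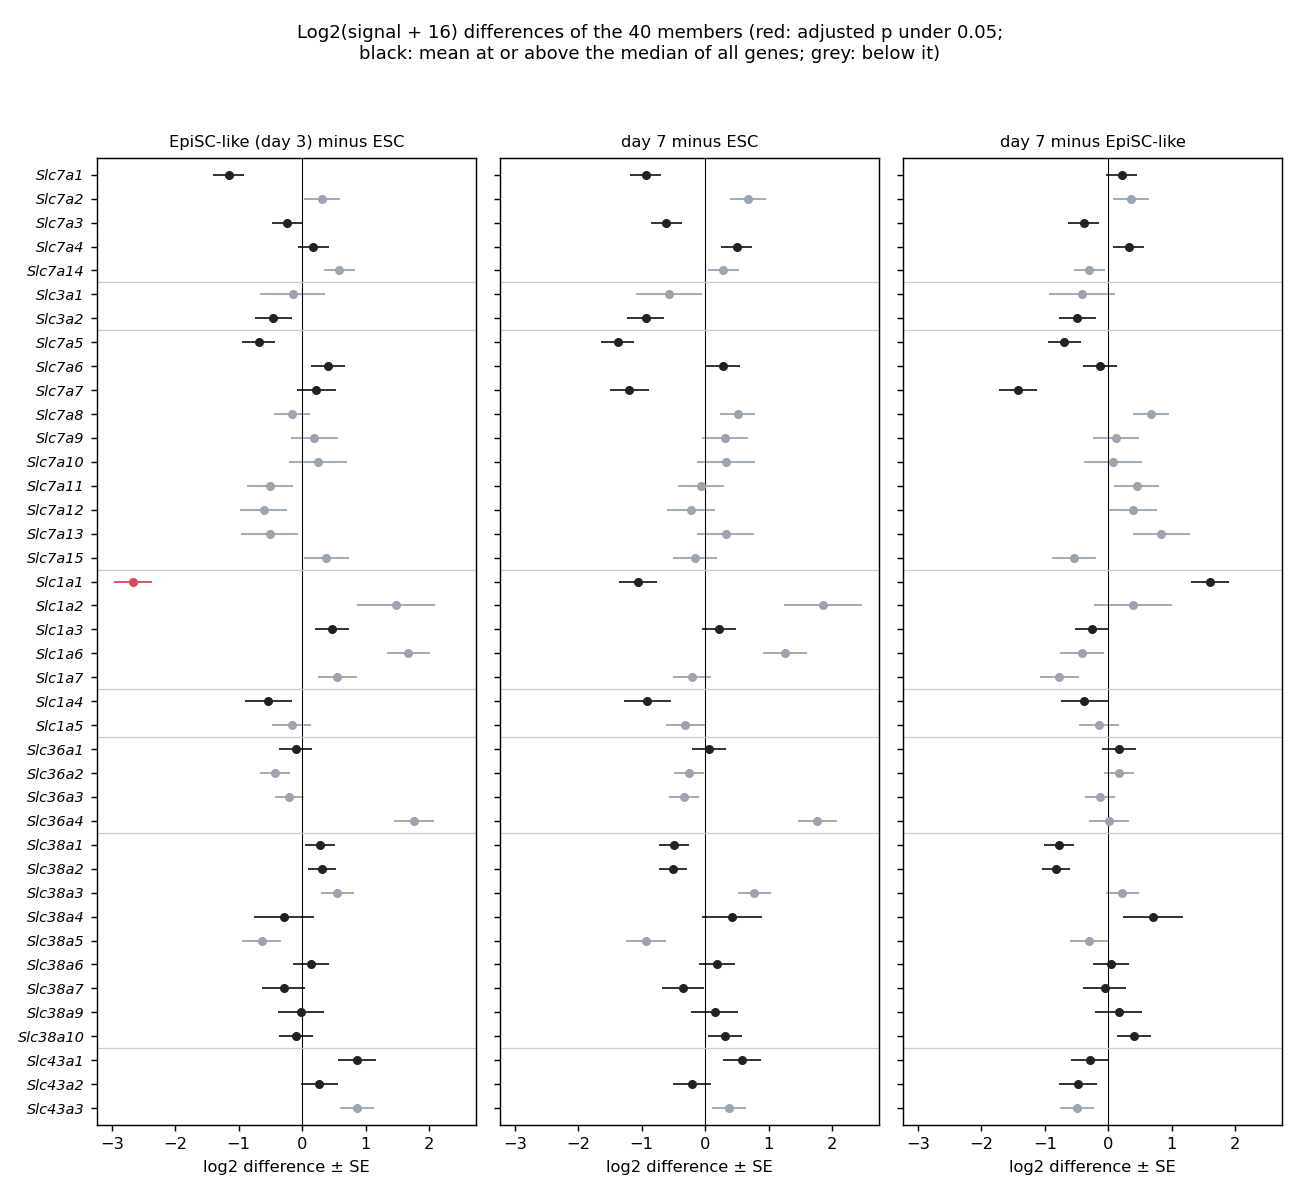
Log2(signal + 16) differences ± SE (x axis) of all 40 transporter genes (y axis, grouped by role) in the 3 comparisons, from limma on 6 arrays. The red point, Slc1a1 in EpiSC-like cells against ESC at -2.66, is the 1 difference that passed at an adjusted p under 0.05. Black points reach the all-gene median in their mean and grey points lie below it.

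Of the 40 members 20 had a mean that reached the all-gene median (a signal of about 170) and 34 one that reached the 25th percentile (about 30.3). The 6 members under that percentile were Slc3a1, Slc7a11, Slc7a12, Slc7a13, Slc7a14 and Slc7a15, and their values can be near the background of the array. Detection calls were not used here, and a low signal does not show that a gene is silent. Signals of different probe sets have no common scale, so levels are compared within a gene only.

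The glutamate carriers gave the largest fall. Slc1a1 (NCBI gene 20510, the carrier EAAT3) had signals of 447 and 497 on the ESC arrays, 82.9 and 44.0 on the EpiSC-like arrays and 204 and 233 on the day 7 arrays. On this probe set the 3 groups did not overlap, with ESC highest and EpiSC-like cells lowest. The log2 difference of EpiSC-like cells from ESC was -2.66 ± 0.30 (SE; adjusted p = 0.0203), with -2.23 within the replicate 1 arrays and -3.10 within the replicate 2 arrays. Day 7 stood at -1.06 ± 0.30 against ESC (adjusted p = 0.144) and at 1.60 ± 0.30 against EpiSC-like cells (adjusted p = 0.100), neither past the threshold. The call was lost with a pseudocount of 1 (adjusted p = 0.0857), with the replicate number as a block (0.0519), and without each of the 6 arrays in turn (from 0.0554 without either day 7 array to 0.142 without ESC replicate 2). The other probe sets of Slc1a1, both with a mean below the all-gene median, gave -2.29 and -0.81 for the same comparison. At day 7 they gave -1.92 and -0.62 against ESC, and only 0.37 and 0.18 against EpiSC-like cells, beside 1.60 on the probe set used. The sign was thus shared and the size was not.

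For orientation, the 150 bases before the annotated start of Slc1a1 are shown, because this is the member with the called change; from RefSeq, build GRCm38.p6, plus strand, chr19:28834985-28835134, 5′ to 3′.
Slc1a1: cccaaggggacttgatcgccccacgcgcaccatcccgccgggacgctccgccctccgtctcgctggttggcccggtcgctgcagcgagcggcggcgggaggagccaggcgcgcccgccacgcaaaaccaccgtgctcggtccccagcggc

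The other glutamate carriers stood higher in EpiSC-like cells than in ESC, and 0 of these 4 passed. Slc1a2, the astrocyte carrier GLT-1, read 12.1 and 47.6 in ESC, 77.4 and 132 in EpiSC-like cells and 72.8 and 249 at day 7 (1.48 ± 0.61 and 1.86 ± 0.61 against ESC, adjusted p = 0.313 and 0.188). Its arrays at day 7 were far apart, and its 4 dimmer probe sets gave values from -1.37 to -0.10 in EpiSC-like cells against ESC, opposite in sign to the probe set used. Slc1a3, the radial glia carrier GLAST, read 204 and 178 in ESC, 261 and 281 in EpiSC-like cells and 276 and 182 at day 7. Of its day 7 arrays 1 lay within the range of ESC and 1 within that of EpiSC-like cells, and its differences from ESC were 0.47 ± 0.27 and 0.22 ± 0.27 (adjusted p = 0.469 and 0.718). Slc1a6, the Purkinje cell carrier EAAT4, read 14.9 and 5.98 in ESC, 57.9 and 78.1 in EpiSC-like cells and 32.0 and 65.6 at day 7. Its values were dim on all arrays (1.68 ± 0.34 and 1.26 ± 0.34 against ESC, adjusted p = 0.0706 and 0.134). Slc1a7, a carrier of the retina, stood at 0.56 and -0.21.

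The cationic amino acid carriers bring in arginine, lysine and ornithine. Slc7a1 (NCBI gene 11987), the widely expressed carrier CAT-1, had signals of 3951 and 3266 in ESC, 1506 and 1707 in EpiSC-like cells and 1686 and 2059 at day 7. The ESC arrays lay above all 4 others, while EpiSC-like and day 7 arrays overlapped. Its differences from ESC were -1.16 ± 0.24 at day 3 (adjusted p = 0.0772; 95% interval -1.74 to -0.57) and -0.94 ± 0.24 at day 7 (adjusted p = 0.124; -1.53 to -0.35). A second bright probe set gave -1.43 and -1.03. Within the replicate 1 arrays the differences were -1.38 and -1.22, and within the replicate 2 arrays -0.93 and -0.66.

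Slc7a3 (NCBI gene 11989), the carrier CAT-3, read 5541 and 6681 in ESC, 4980 and 5383 in EpiSC-like cells and 4430 and 3545 at day 7. The 3 groups did not overlap and ran downwards, but the differences from ESC were small, -0.23 ± 0.24 (adjusted p = 0.730) and -0.62 ± 0.24 (adjusted p = 0.257). Slc7a2, the carrier CAT-2, stood at 0.31 and 0.67 against ESC and Slc7a4, a related protein, at 0.17 and 0.50. Slc7a14, a lysosomal relative, stood at 0.59 and 0.29 from signals between 9.94 and 31.8. None of these 3 passed, and on the probe sets used their signs were the opposite of those of Slc7a1 and Slc7a3. The dimmer probe sets of Slc7a2 and of Slc7a4 had both signs, and that of Slc7a14 gave -0.31 and -0.24.

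**Figure D2:**
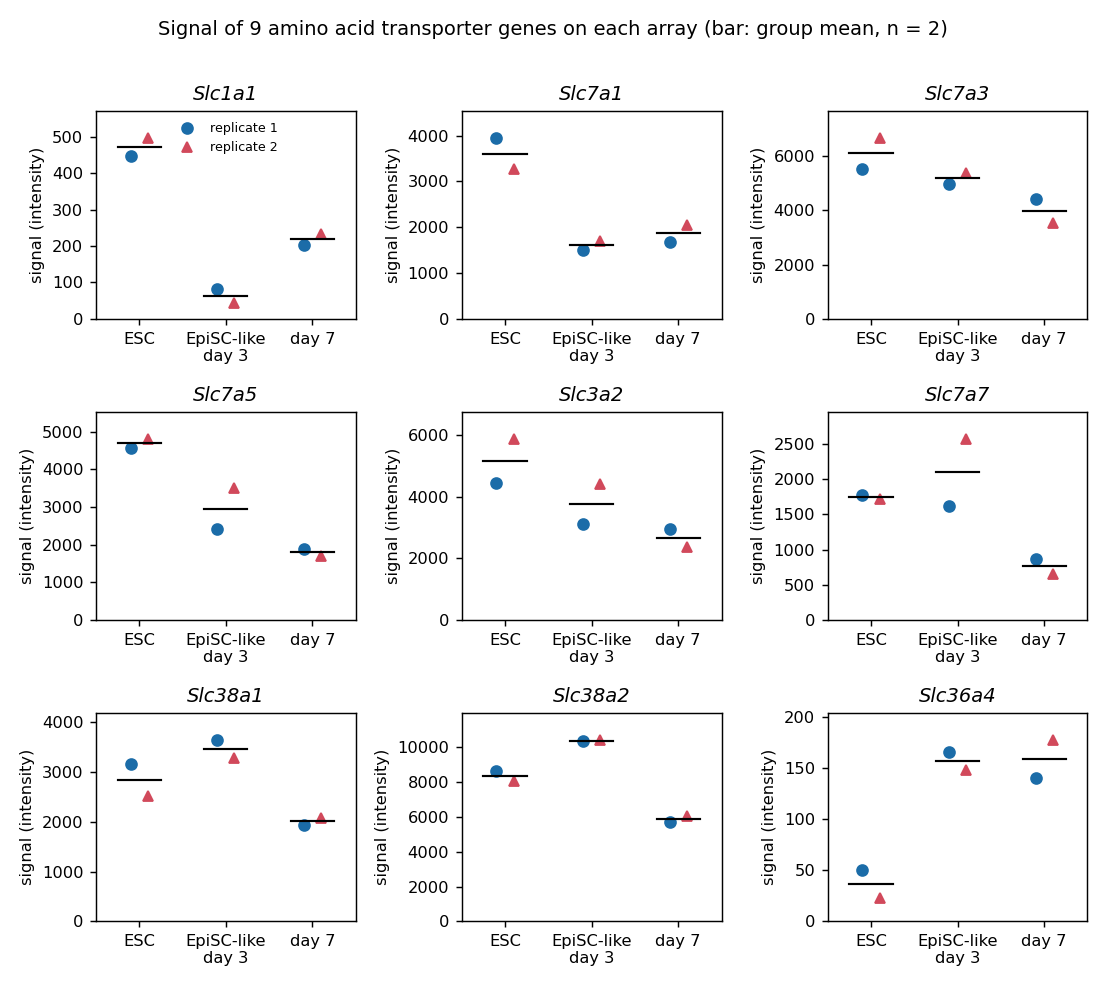
Signal (y axis, intensity, linear from 0) of 9 transporter genes on the arrays of ESC, EpiSC-like cells at day 3 and day 7 (x axis). Circles are replicate 1, triangles replicate 2 and bars group means (n = 2). ESC is the highest group for Slc1a1, Slc7a1, Slc7a3, Slc7a5 and Slc3a2, and day 7 the lowest for Slc7a3, Slc7a5, Slc3a2, Slc7a7, Slc38a1 and Slc38a2.

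Heteromeric exchangers pair a heavy chain that carries them to the membrane with a light chain that transports. Slc3a2 (NCBI gene 17254), the heavy chain 4F2hc or CD98, read 4422 and 5859 in ESC, 3120 and 4415 in EpiSC-like cells and 2938 and 2378 at day 7. The ESC arrays lay above all 4 others, although the lower ESC array and the higher EpiSC-like array nearly met. The differences were -0.45 ± 0.29 at day 3 (adjusted p = 0.525) and -0.94 ± 0.29 at day 7 (adjusted p = 0.171). At day 7 the difference of Slc3a2 from ESC was -0.59 within the replicate 1 arrays and -1.295 within the replicate 2 arrays. Its light chain partner Slc7a5 (NCBI gene 20539), the leucine carrier LAT1, read 4580 and 4806 in ESC, 2414 and 3499 in EpiSC-like cells and 1891 and 1704 at day 7. The 3 groups ran downwards without overlap. At day 7 the difference from ESC was -1.38 ± 0.26 (adjusted p = 0.0707; 95% interval -2.01 to -0.75), with -1.27 and -1.49 within the 2 replicate numbers, and at day 3 it was -0.69 ± 0.26 (adjusted p = 0.270). Each of these 2 genes had 1 probe set. Slc3a1, the heavy chain of the kidney cystine exchanger, was dim, with signals from 2.49 to 40.9.

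Slc7a7 (NCBI gene 20540), the light chain y+LAT1 that exchanges cationic for neutral amino acids, had another course. It read 1768 and 1721 in ESC, 1623 and 2563 in EpiSC-like cells and 871 and 649 at day 7. EpiSC-like arrays spanned those of ESC, and the day 7 arrays lay below all others. Day 7 stood at -1.20 ± 0.30 against ESC (adjusted p = 0.117) and at -1.42 ± 0.30 against EpiSC-like cells (adjusted p = 0.126; 95% interval -2.15 to -0.69), and EpiSC-like cells at 0.22 ± 0.30 against ESC (adjusted p = 0.801). Its second probe set gave -1.56, -1.57 and 0.0020. On the probe set used, day 7 stood at -1.01 against ESC and -0.88 against EpiSC-like cells within the replicate 1 arrays. Within the replicate 2 arrays these values were -1.39 and -1.96. Slc7a6, the related light chain y+LAT2, stood at 0.41 ± 0.27 and 0.28 ± 0.27 against ESC, with adjusted p = 0.529 and 0.634.

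The remaining light chains were below the median of all genes on average. Slc7a8, the carrier LAT2, read 45.7 and 37.1 in ESC, 33.8 and 36.9 in EpiSC-like cells and 85.2 and 49.9 at day 7 (-0.16 ± 0.28 and 0.51 ± 0.28 against ESC, adjusted p = 0.859 and 0.392). Slc7a11, the cystine and glutamate exchanger xCT, read 18.2 and 32.4 in ESC, 5.04 and 22.8 in EpiSC-like cells and 19.8 and 26.4 at day 7, with overlap between all groups. Its differences from ESC were -0.51 ± 0.36 (adjusted p = 0.573) and -0.06 ± 0.36 (adjusted p = 0.951). Slc7a9, Slc7a10, Slc7a12, Slc7a13 and Slc7a15 ranged from -0.61 to 0.38 at day 3 and -0.22 to 0.33 at day 7, and 0 of the 5 passed.

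Several transporter genes are textbook targets of ATF4, the transcription factor of amino acid shortage, which binds C/EBP-ATF response elements. The 250 bases before each start in RefSeq (GRCm38.p6) were searched for TGATGNAA on both strands. Promoters were listed for 29 of the 40 members, and 3 of their 40 promoters held the letters (7.50%, against 3.45% of all 32851 promoters). Counted by gene, 2 of the 29 members held them, against 3.91% of 27025 genes. These members are Slc7a11 and Slc7a7, whose windows of 60 bases are shown with the matches in capitals, 5′ to 3′ along the minus strand. Slc7a11 lies at chr3:50443637-50443696 and has a match on each strand; the windows of Slc7a7, from alternative starts, are chr14:54418052-54418111 and chr14:54417893-54417952.
Slc7a11: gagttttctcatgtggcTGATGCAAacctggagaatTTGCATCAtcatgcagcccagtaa
Slc7a7, first start: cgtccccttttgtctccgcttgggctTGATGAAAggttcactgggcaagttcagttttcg
Slc7a7, second start: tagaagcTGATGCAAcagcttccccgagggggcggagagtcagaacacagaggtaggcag
These matches are a description of letters: Slc7a11 was dim in all groups, and Slc7a7 had lower signals at day 7 that did not pass.

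Slc1a4 and Slc1a5, the neutral amino acid carriers ASCT1 and ASCT2, stood below 0 in all 3 comparisons on the probe sets used, and 0 of these 2 passed. Slc1a4 read 581 and 867 in ESC, 347 and 679 in EpiSC-like cells and 360 and 381 at day 7. The day 7 arrays lay below those of ESC, and the EpiSC-like arrays lay on either side of them. Its differences from ESC were -0.53 ± 0.37 at day 3 (adjusted p = 0.569) and -0.91 ± 0.37 at day 7 (adjusted p = 0.265). Slc1a5 read 155 and 196 in ESC, 115 and 204 in EpiSC-like cells and 133 and 142 at day 7 (-0.17 ± 0.31 and -0.31 ± 0.31, adjusted p = 0.865 and 0.650). The dimmer probe sets did not share the sign throughout. That of Slc1a5 gave -0.28 at day 3 and 0.35 at day 7 against ESC, and 0.63 at day 7 against EpiSC-like cells. Those of Slc1a4 were below 0 against ESC at both stages, but gave -0.22 and 0.96 at day 7 against EpiSC-like cells.

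Among the sodium-coupled neutral amino acid carriers, Slc38a2 (NCBI gene 67760), the alanine and glutamine carrier SNAT2 that cells induce when amino acids are short, read 8616 and 8053 in ESC, 10351 and 10391 in EpiSC-like cells and 5705 and 6020.5 at day 7. The 3 groups did not overlap, with EpiSC-like cells highest and day 7 lowest. Day 7 stood at -0.82 ± 0.22 against EpiSC-like cells (adjusted p = 0.181) and at -0.51 ± 0.22 against ESC (adjusted p = 0.283). Slc38a1, the related carrier SNAT1, read 3167 and 2529, 3637 and 3290, and 1933 and 2086 in the same order of groups. Its order was the same, with day 7 at -0.78 ± 0.24 against EpiSC-like cells (adjusted p = 0.229) and at -0.49 ± 0.24 against ESC (adjusted p = 0.335).

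A second probe set did not share the low day 7 values of either gene. For Slc38a2 it gave 0.31 at day 7 against ESC and -0.05 against EpiSC-like cells, and for Slc38a1 0.24 and 0.06. The probe set used for Slc38a1 has the suffix that the maker gives to sets that can match several transcripts. The actin 3' to 5' difference was wider on the day 7 arrays too, while that of Gapdh was not, and the part of RNA quality in these values was not tested. Among the 9 members with several probe sets that reach the all-gene median, these shared a sign in 8 when EpiSC-like cells were set against ESC, in 5 when day 7 was, and in 6 between the later stages.

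**Figure D3:**
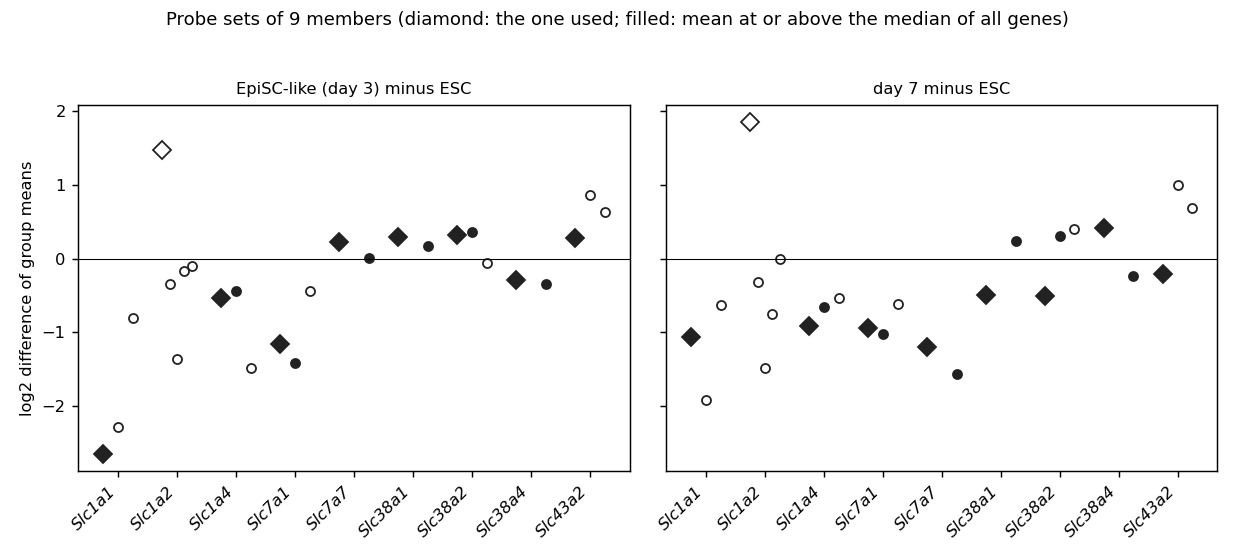
Log2 differences (y axis, log2(signal + 16) group means) of each probe set of 9 transporter genes (x axis) for the EpiSC-like and the day 7 arrays, each against ESC. Diamonds are the probe sets used for the gene, circles its other probe sets, and filled symbols reach the all-gene median in their mean. At day 7 the filled symbols of Slc38a1, Slc38a2 and Slc38a4 lie on opposite sides of 0, and those of Slc1a4, Slc7a1 and Slc7a7 on one side.

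Slc38a4 (SNAT4, an imprinted gene) read 5404 and 2760 in ESC, 4794 and 2090 in EpiSC-like cells and 5265 and 5088 at day 7. The replicates of ESC and of EpiSC-like cells differed more than the groups did, and the differences from ESC were -0.29 ± 0.48 and 0.42 ± 0.48 (adjusted p = 0.848 and 0.693). Slc38a9, the lysosomal arginine sensor that signals to mTORC1, read 365 and 205 in ESC, 354 and 207 in EpiSC-like cells and 320 and 293 at day 7, with overlap between all groups. It stood at -0.02 ± 0.37 and 0.15 ± 0.37 against ESC (adjusted p = 0.993 and 0.872), with 95% intervals of -0.90 to 0.87 and -0.73 to 1.03, and the day 7 value was -0.06 with arrays centred on their median. Slc38a3, a glutamine carrier, read 91.5 and 61.4 in ESC, 127 and 110 in EpiSC-like cells and 131 and 150 at day 7, and its groups did not overlap (0.77 ± 0.26 at day 7 against ESC, adjusted p = 0.193). Slc38a5, another glutamine carrier, ran the other way, from 71.2 and 38.3 to 33.2 and 23.8 and to 24.2 and 16.2 (-0.94 ± 0.31 at day 7 against ESC, adjusted p = 0.189), with overlap between the later stages. Slc38a6, Slc38a7 and Slc38a10 ranged from -0.35 to 0.31 against ESC over both stages.

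Of the proton-coupled carriers, Slc36a4 (NCBI gene 234967), which has a high affinity for proline and tryptophan, came nearest to a rise. It read 50.3 and 23.3 in ESC, 166 and 148 in EpiSC-like cells and 140 and 177 at day 7. Both later stages lay above ESC and overlapped with each other, at 1.76 ± 0.31 (adjusted p = 0.0520; 95% interval 1.01 to 2.51) and 1.77 ± 0.31 (adjusted p = 0.0614; 1.02 to 2.52). Day 7 and EpiSC-like cells differed by 0.01 ± 0.31 (adjusted p = 0.995). Within the replicate 1 arrays the differences of Slc36a4 from ESC were 1.46 at day 3 and 1.24 at day 7, and within the replicate 2 arrays 2.06 and 2.30. All signals of Slc36a4 but 1 were below the median gene level of about 170, and it had 1 probe set. Slc36a1, the lysosomal carrier PAT1, read 397 and 299.6 in ESC, 367 and 278 in EpiSC-like cells and 338 and 386 at day 7, with overlap between all groups. It stood at -0.10 ± 0.27 and 0.06 ± 0.27 against ESC (adjusted p = 0.906 and 0.927; 95% intervals -0.74 to 0.53 and -0.57 to 0.70), and the day 7 value was -0.15 with arrays centred on their median. Slc36a2 and Slc36a3 ranged from -0.43 to -0.20.

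The 3 Slc43 genes stood above ESC in EpiSC-like cells, and 0 of 3 passed. Slc43a1, the leucine carrier LAT3, read 289 and 164 in ESC, 403 and 420 in EpiSC-like cells and 344 and 325 at day 7, with ESC lowest and EpiSC-like cells highest (0.87 ± 0.30 and 0.58 ± 0.30 against ESC, adjusted p = 0.224 and 0.365). Slc43a3, which carries purine bases rather than amino acids, read 128 and 83.3, 192 and 212, and 130 and 149 (0.86 ± 0.27 and 0.38 ± 0.27, adjusted p = 0.179 and 0.513). Slc43a2, the carrier LAT4, read 178 and 207, 298 and 185, and 144 and 187, with overlap between the groups (0.27 ± 0.30 and -0.21 ± 0.30, adjusted p = 0.741 and 0.765). Its other probe sets, both with a mean below the all-gene median, gave 0.87 and 0.64 in EpiSC-like cells against ESC. At day 7 against ESC they gave 1.00 and 0.68, opposite in sign to the probe set used.

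The differences of the members were compared between the replicate 1 and replicate 2 arrays, which share no array. The correlation across the 40 genes was r = 0.70 between EpiSC-like cells and ESC, 0.75 between day 7 and ESC, and 0.53 between the later stages. Over all 18193 genes it was 0.56, 0.49 and 0.42. Genes of one array share its preparation and are no independent replicates, so these are descriptions. Of the 40 members 32, 31 and 25 had the same sign in both. Replicates of the members differed by a median of 0.42 (ESC), 0.34 (EpiSC-like cells) and 0.26 (day 7), beside 0.33, 0.33 and 0.28 over all genes.

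**Figure D4:**
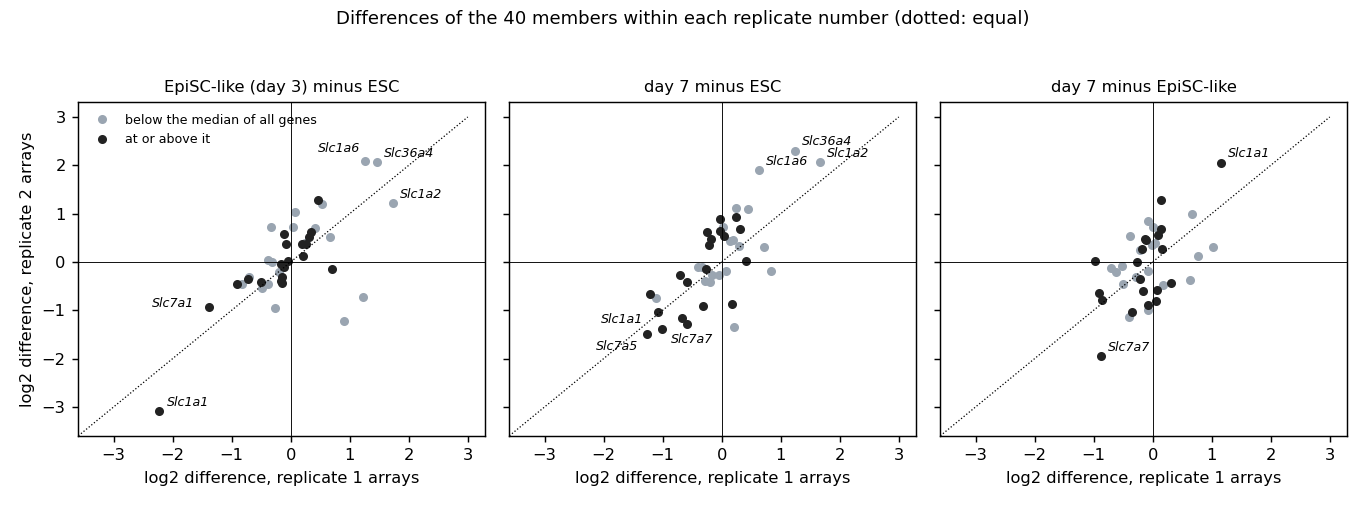
Log2 differences of the 40 members within the replicate 1 arrays (x axis) and within the replicate 2 arrays (y axis) for the 3 comparisons; black points reach the all-gene median in their mean and grey points lie below it. Named genes differed by at least 1 on average. Slc1a1 stands apart at -2.23 and -3.10 in EpiSC-like cells against ESC.

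Other genes of amino acid supply were read from lists of known function. Of 22 genes in further carrier families 0 passed in any comparison, and the lowest adjusted p was 0.0572, at day 7 against ESC. Their differences from ESC ran from -1.56 to 0.51 in EpiSC-like cells (median -0.16) and from -1.77 to 0.87 at day 7 (median -0.09). Of 16 aminoacyl-tRNA synthetase genes, which load amino acids onto tRNA, 0 passed, although 16 of 16 stood below 0 in EpiSC-like cells against ESC (median -0.46) and 15 of 16 at day 7 (median -0.78). The medians over all genes were 0.03 and 0.02. The lowest adjusted p was 0.0808, at day 7, and the ESC arrays themselves differed in the summed signal of the list (88281 and 127260).

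Of 18 genes of the amino acid response, including ATF4 targets, 2 fell and 0 rose in EpiSC-like cells, and 1 rose and 0 fell at day 7 against ESC. Over all genes 1.31% were called higher and 0.583% lower in EpiSC-like cells, and 0.753% and 0.286% at day 7. Ddit3, a stress transcription factor, fell by 1.84 ± 0.28 (adjusted p = 0.0357), from 808 and 1093 to 227 and 278, and its day 7 signals of 787 and 1034 overlapped with those of ESC. Cth, which makes cysteine, fell by 1.62 ± 0.23 (adjusted p = 0.0329), from 3960 and 4675 to 1500 and 1280. Ddit4, an inhibitor of mTORC1, was higher at day 7 by 2.07 ± 0.24 (adjusted p = 0.0291), with 3145 and 3130 in ESC and 13207 and 13303 at day 7. The list's median was -0.87 in EpiSC-like cells and -0.49 at day 7 against ESC, beside 0.03 and 0.02 over all genes, and its summed signal differed between the ESC arrays themselves (60874 and 90764). Atf4 itself stood at -0.85 and -1.07 and did not pass (adjusted p = 0.237 and 0.145). Of 21 genes that sense amino acids for mTORC1 1 rose in EpiSC-like cells, Sesn3 (1.57 ± 0.23, adjusted p = 0.0352), and 0 passed at day 7. Of 13 genes of threonine, glutamine, arginine and serine metabolism 0 passed in any comparison, and 12 stood below 0 at day 7 against ESC (median -0.78). Phgdh, Psat1, Psph and Shmt2 are among these 12 and also belong to the list of the amino acid response. Of 9 genes of cystine and glutathione 1 fell in EpiSC-like cells, the same Cth, and 0 passed at day 7. The calls of Ddit3, Cth, Ddit4 and Sesn3 were lost with a pseudocount of 1 and with the replicate number as a block, where 0 of all genes passed.

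Markers of other cells were read beside these values. Of 18 genes of primitive and visceral endoderm 0 passed, 16 stood above 0 at day 7 against ESC (median 1.32), and their summed signal was 14713 and 34937 on the day 7 arrays, 12956 and 15153 on the ESC arrays and 7524 and 8654 on the EpiSC-like arrays. The visceral endoderm genes Afp and Ttr, named here after their values were seen, read 64.3 and 471, and 89.6 and 779, on the day 7 arrays and at most 24.7 on the other 4. Slc1a2 was higher on the second array of every group, with 72.8 and 249 at day 7, 12.1 and 47.6 in ESC and 77.4 and 132 in EpiSC-like cells. Of 10 neuron markers 0 were called higher and 1, Stmn2, was called lower in each of the comparisons with ESC (-3.02 and -2.45). Most of the list stood the other way at day 7, with 8 of 10 above 0 against ESC (median 0.77). In EpiSC-like cells 6 of 10 were above 0 (median 0.15). Of 12 trophoblast and 7 astroglia and microglia markers 0 passed. The part of such cells in the transporter values was not tested.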

How the data were processed

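Total RNA (100 ng) of sorted cells was measured on Affymetrix 3' expression arrays. Each deposited value is the linear intensity of a probe set. The submitters' processing notes name Affymetrix Expression Console (version 1), the algorithm not given in the sources used here. The 2% trimmed mean of each array was 500.003 to 500.004, so arrays had been scaled before deposition. Of 45101 probe sets, 64 controls were left out. Platform annotation gave 1 gene to 34945, several to 932 and none to 9160. Gene identifiers of 34741 matched RefSeq (GRCm38.p6), with 0 symbols changed. The labels name no genome build for the probes.

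Values were taken as log2(signal + 16), on which the fold change of dim genes is understated. limma (version 3.58.1, R 4.3.3) with eBayes was fitted to all 18193 genes on 6 arrays with 3 group means, no block and no filter (3 residual degrees of freedom); a gene was called where its p, adjusted by Benjamini-Hochberg across every gene, was under 0.05. The script was tested on simulated data. Precision is limited by 2 arrays a group. Members and lists were chosen with earlier results of these data known. Full statistics went to members that passed, to members that differed by at least 1 in the same direction in both replicate numbers with a group mean that reached the all-gene median, and to a list of well-known carriers; some others have values. Alternatives covered pseudocounts, centring, quantile normalization, dim-gene filters, probe set choice, the variance prior, a replicate block and leaving out each array.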

Additional observations from a re-analysis of the deposited data

How the results depend on the processing

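With 2 arrays a group, the counts depended on the setting, and the cause was not tested. For EpiSC-like cells against ESC, day 7 against ESC and day 7 against EpiSC-like cells, in this order, 345, 189 and 7 of all genes were called as reported. A pseudocount of 1 gave 0, 0 and 0, a pseudocount of 64 gave 672, 679 and 206, genes at or above the 25th percentile 672, 567 and 144, genes at or above the median 734, 843 and 315, and an intensity trend 794, 791 and 199. Quantile normalization gave 0 in the third. Leaving out 1 array gave 0 to 63, 0 to 10 and 0 to 0. Centring each array turned the calls of 239 higher and 106 lower into 184 and 148 in the first comparison, and 137 and 52 into 92 and 82 in the second.

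The replicate number as a block gave 0, 0 and 0 calls among all genes and 0 members, with an adjusted p of 0.0519 for Slc1a1 in the first comparison. Deviations of arrays with the same number correlated with r = 0.28 between ESC and EpiSC-like cells, 0.08 between ESC and day 7 and 0.10 between EpiSC-like cells and day 7, and over the 40 members with r = 0.30, 0.35 and 0.08. The labels state no pairing, so the main fit had no block. The all-gene correlation was largest for ESC and EpiSC-like cells, the comparison with the called member. The hybridization controls were brighter on every replicate 2 array, and the poly-A controls dimmer on those of ESC and EpiSC-like cells. Whether the numbers pair the samples is not known.

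Members called were 1, 0 and 0 as reported. There were 0 in the first comparison with a pseudocount of 1 and 0 without any 1 array. In the first comparison there were 3 with a pseudocount of 64, 4 at or above the 25th percentile, 2 at or above the median, 2 with the mean of all probe sets and 3 with the trend. In the second there were 3 with a pseudocount of 64, 2 and 4 with these filters and 4 with the trend, and in the third 2 at or above the median and 1 with the trend. The members added were Slc36a4, Slc7a1, Slc7a5, Slc7a7 and Slc1a6, and Slc1a1 in the other comparisons.

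The median of the members in the first comparison was 0.17 with a pseudocount of 1, -0.087 centred, -0.044 after quantile normalization, 0.16 and -0.058 with the filters, -0.10 with the mean of probe sets and -0.054 to 0.18 without 1 array. In the second it was -0.21, -0.10, 0.11, -0.28 and -0.17 to 0.011 for centring, quantile, the filters and leaving out 1 array. In the third it was -0.16, -0.14, -0.19 (at or above the median) and -0.14 to -0.040, and 0.020 with the mean of probe sets.

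Some signs turned, and none of the turned values listed here passed. With the mean of all probe sets Slc1a2 stood at -0.10, -0.14 and -0.040, Slc1a5 at 0.021 in the second and 0.24 in the third comparison, Slc1a4 at 0.12 in the third, and Slc38a2 at 0.070, Slc38a9 at -0.089 and Slc43a2 at 0.49 in the second. Centring and quantile normalization gave Slc36a1 -0.15 and -0.088 and Slc38a9 -0.061 and -0.038 in the second, and Slc36a4 -0.051 and -0.020 in the third. Without 1 array the first comparison ranged from -0.30 to 0.090 for Slc36a1, -0.88 to 0.31 for Slc38a4, -0.41 to 0.38 for Slc38a9, -0.54 to 0.21 for Slc1a5, -0.050 to 0.60 for Slc43a2 and -0.10 to 0.55 for Slc7a7. The second ranged from -0.13 to 0.26 for Slc36a1, -0.062 to 0.90 for Slc38a4, -0.24 to 0.55 for Slc38a9, -0.31 to 0.19 for Slc7a11 and -0.061 to 0.50 for Slc1a3. The third ranged from -0.85 to 0.089 for Slc1a4, -0.52 to 0.23 for Slc1a5, -0.023 to 0.36 for Slc36a1, -0.14 to 0.16 for Slc36a4, -0.20 to 0.53 for Slc38a9, -0.40 to 1.17 for Slc1a2 and -0.54 to 0.028 for Slc1a3.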
